A study of Harpegnathos saltator with 12 samples.

Results

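The odorant receptors described here are 97 tuning receptor genes of the ant Harpegnathos saltator that stand side by side in runs of 5 to 14 receptor genes. A run was taken as an unbroken series of rows, in the order of the gene count tables, whose names begin with HsOr and a number. Of 54 such runs, 11 had the right size and held 101 receptors. The rule leaves out 19 named receptors, of which HsOr184, HsOr202, HsOr201 and HsOr247 sat in these runs, and the 97 that remained were among 376 tuning receptors and 14407 genes in the tables. The rule is written in names and row positions, but the 4 receptors it left out here kept 26.9% to 68.7% of their control level in orco homozygotes. Membership is therefore not independent of the homozygote levels described below, and the arrays that lost a receptor are trimmed lists. Each array is named by its first and last row.

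The row order was compared in part with RefSeq's annotation of the Hsal_v8.6 assembly, which does not carry the receptor names. For 6 of the arrays the gene after the run started between 36.9 kb and 106 kb beyond the gene before it. Pairs that were not annotated or stood in another order gave no distance, and the scaffolds of the flanking genes were not compared. The order of the receptors within a run could not be checked. HsOr226 to HsOr231 and HsOr232 to HsOr239 were separated by a single gene row, so the rule counts them as neighbouring arrays. The run of HsOr140, HsOr146, HsOr147, HsOr153 and HsOr156 to HsOr160 stood at the end of the table, among gene models added after the numbered loci, and the study's receptor list puts these 9 genes on the scaffold of a longer array. It is therefore a run by the rule and not an array of its own. Its values are described separately, and the other 10 arrays, with 88 members, are called the arrays in place.

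Insect tuning odorant receptors are ligand-binding ion channel subunits that work together with a shared co-receptor, Orco, in the dendrites of olfactory receptor neurons. As a rule each olfactory neuron uses 1 tuning receptor or a few, and in ants the gene family has grown by repeated tandem duplication, so that related receptors lie side by side in arrays. Ants use the family to smell the hydrocarbons that coat nestmates, among other odors. The sources used here give no ligand for the members, so the role stated for each is that of a tuning receptor only.

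The libraries were made from poly(A) RNA of antennae in 3 groups: wild type (wt, n = 2), heterozygotes (n = 3) and homozygotes (n = 7) for a mutation of orco. Wild type and heterozygote together are called the controls (n = 5), and all homozygotes lacked an unmutated orco copy by their label. The study describes its antennal libraries of these 3 groups as adult. Neither age nor the number of ants per library is given in the labels, nor whether the libraries came from separate animals. The p-values therefore measure the spread between these samples. The labels assign 3 libraries to sequencing batch 1 (homozygote 1, heterozygote 1 and wild type 2) and the other 9 to batch 2.

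Gene counts ranged from 4.11 M to 23.2 M per library. HsOrco, the targeted gene, lay between 1669.9 and 2769 CPM in the controls and between 13.6 and 157 CPM in the homozygotes. Here CPM are counts scaled to the library total after TMM adjustment. The 157 CPM were those of homozygote replicate 5, also the library with the most gene counts (23.2 M). The next highest homozygote, replicate 3, stood at 45.0 CPM. Of 13 markers of antennal cell types taken from the study, 4 were lower in the homozygotes, where 25.0% of all tested genes were, and 4 were higher. The share of all genes called higher was not taken, so these counts are not read as a trait of the markers. The general neuronal markers nSyb, Syt1 and onecut were lower and fne was not called, the summed neuronal level being 1335 to 2214 CPM in the controls and 556 to 1263 CPM in the homozygotes. The support-cell list of 4 held 1 lower and 1 higher gene, at 3293 to 7418 CPM against 3717 to 5733 CPM. The glial marker repo, the muscle marker Mhc and the ammonia-neuron marker Rh50 were higher, and no marker stood at 0 in any group. These calls are against all controls. With a single control genotype as reference, repo was called against neither. Mhc and the higher support-cell gene, sv, were not called against the heterozygotes, and Syt1 was not called against the wild type. In bulk RNA, fewer cells of a type and less RNA per cell cannot be told apart, and the part of cell makeup in the results below was not tested.

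Transcripts of the receptors that the rule kept as members fell in the homozygotes almost without exception. The 97 members together stood at 1196 and 766 CPM in the wild types, at 737, 573 and 498 CPM in the heterozygotes and between 21.7 and 35.5 CPM (median 22.4) in the homozygotes. All 7 homozygote libraries lay far below all 5 controls. The homozygotes kept 3.42% ± 0.769 (SD over the homozygote libraries, n = 7) of the control level, and 3.31% without the run at the end of the table. The percentage kept is the mean CPM of the homozygotes divided by the mean CPM of the controls.

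Gene by gene, 88 members passed the minimum of a mean count of 10 per library and entered edgeR's quasi-likelihood test across all genes, with a batch term and Benjamini-Hochberg adjustment. Against the controls all 88 were called lower at an adjusted p under 0.05 and 0 were higher, where 25.0% of all 10740 tested genes were called lower. Their median log2 fold change was -6.29, from -10.34 to -0.67, against -0.04 over all tested genes. The -10.34 is a fitted value of HsOr356, which had no homozygote count, so it is not a measured level. The same holds for all 5 tested members without a homozygote count, for which bounds are given below. With these 5 set to their bounds the median was also -6.29. In 86 of the 88 every homozygote library lay below every control, which held for 9.81% of all tested genes. The exceptions were HsOr367 and HsOr368, which end the array HsOr355 to HsOr368. These counts are of a list without the 4 left-out receptors. With those restored 90 were called lower, and HsOr202 and HsOr201 were not called (adjusted p 0.246 and 0.111). The homozygotes of HsOr202, HsOr201 and HsOr247 overlapped the controls. The 9 members below the minimum had control means between 0.803 and 2.44 CPM, and in 8 of them the homozygotes also lay below all controls.

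Each control genotype alone gave the same direction. Against the heterozygotes 87 members were lower, where 16.2% of all genes were, and HsOr368 was not called (log2 fold change -0.28, SE 0.24, adjusted p 0.446). Against the wild type 87 were lower, where 25.8% of all genes were, and HsOr367 was not called (log2 fold change -0.62, SE 0.42, adjusted p 0.248). These comparisons share the homozygote libraries and are no independent support for the comparison with all controls. The members' median log2 fold change was -5.92 with the heterozygotes as reference and -6.82 with the wild type. Called lower in all of them were 86 members.

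**Figure D1:**
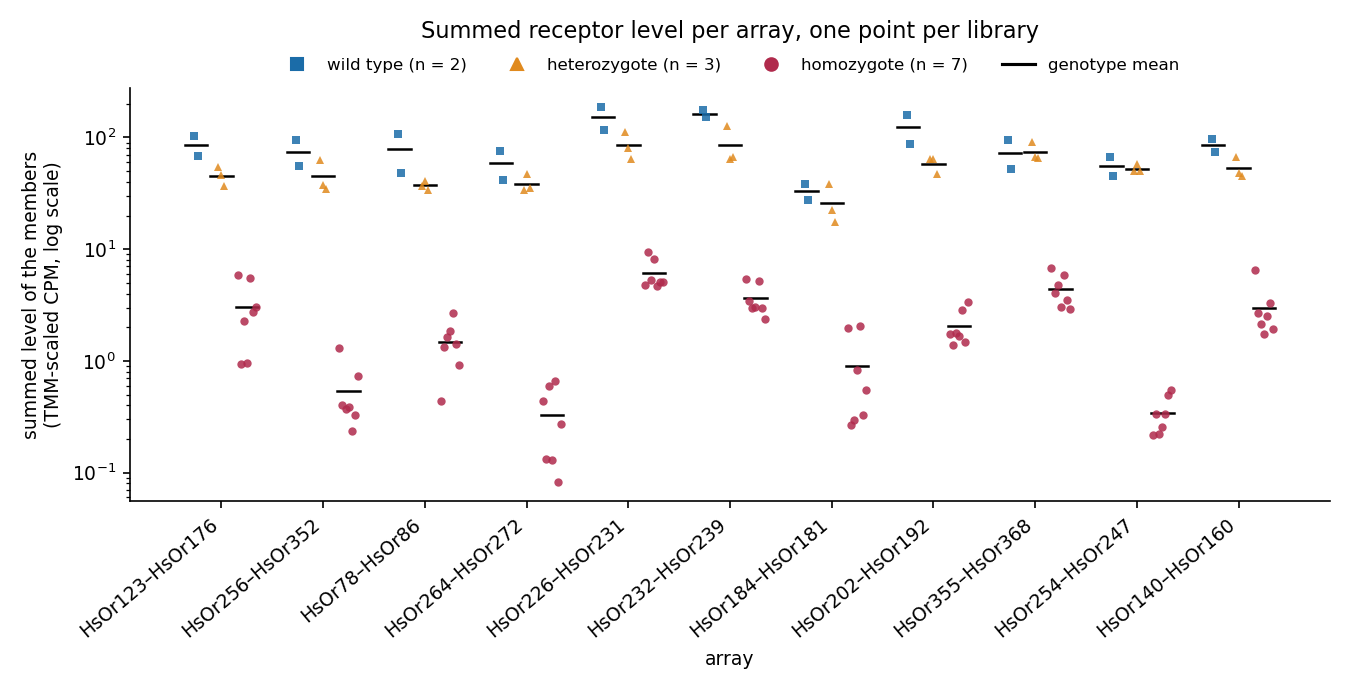
Summed level of the members of each array (TMM-scaled CPM, log axis) in every library, with black bars for the genotype means. In each of the 11 arrays the 7 homozygote points lie below all 5 control points, and wild-type replicate 1 holds the highest control sum in 10 of the 11.

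By array, the homozygotes kept between 0.640% and 5.96% of the summed control level. Among the members as the rule left them, the largest share was kept by HsOr355 to HsOr368 (5.96% ± 1.97 (SD over the homozygote libraries, n = 7)), followed by HsOr226 to HsOr231 (5.41% ± 1.68 (SD over the homozygote libraries, n = 7)) and HsOr123 to HsOr176 (4.98% ± 3.25 (SD over the homozygote libraries, n = 7)). Next came HsOr140 to HsOr160 (4.50% ± 2.50 (SD over the homozygote libraries, n = 7)), HsOr232 to HsOr239 (3.11% ± 1.03 (SD over the homozygote libraries, n = 7)) and HsOr184 to HsOr181 (3.11% ± 2.70 (SD over the homozygote libraries, n = 7)). Neighbours in this order differed by less than the spread over the homozygotes. HsOr78 to HsOr86 kept 2.73% ± 1.32 (SD over the homozygote libraries, n = 7) and HsOr202 to HsOr192 kept 2.43% ± 0.901 (SD over the homozygote libraries, n = 7). The smallest shares were those of HsOr256 to HsOr352 (0.946% ± 0.655 (SD over the homozygote libraries, n = 7)), HsOr264 to HsOr272 (0.710% ± 0.509 (SD over the homozygote libraries, n = 7)) and HsOr254 to HsOr247 (0.640% ± 0.244 (SD over the homozygote libraries, n = 7)), which again overlapped each other over the libraries. This order is that of the trimmed arrays: with the left-out rows restored HsOr202 to HsOr192 kept 14.3%, HsOr254 to HsOr247 13.4% and HsOr184 to HsOr181 7.24%, all above the other arrays. The differences between arrays were not tested.

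HsOr123 to HsOr176 was the array with the most members at or under 3 homozygote counts. It has 13 rows, HsOr123 to HsOr130, with HsOr126_127 as 1 row, followed by HsOr171 to HsOr176, and 9 members were tested and lower. Their sum stood at 102 and 68.0 CPM in the wild types, 54.2, 45.8 and 36.6 CPM in the heterozygotes and between 0.935 and 5.88 CPM (median 2.73) in the homozygotes. HsOr176, the last row, stood at 19.7 and 8.70 CPM in the wild types, 9.66, 7.63 and 6.20 CPM in the heterozygotes and between 0.734 and 4.14 CPM (median 2.15) in the homozygotes. It kept 22.0% (log2 fold change -2.21, SE 0.42, adjusted p 0.00157) and supplied 74.7% of the array's homozygote sum, and without it the array kept 1.52%. HsOr175, the neighbouring row and the member with the most counts, stood at 28.5 and 18.7 CPM in the wild types, 15.0, 13.4 and 9.61 CPM in the heterozygotes and between 0.0643 and 0.871 CPM (median 0.497) in the homozygotes and kept 2.82% (log2 fold change -5.19, SE 0.40, adjusted p 1.98e-06). Both were higher in homozygote replicates 1 and 5 than in replicates 2 and 4. HsOr123, the first row, was below the count minimum at 2.75 and 3.48 CPM in the wild types, 1.87, 0.614 and 0.238 CPM in the heterozygotes and between 0 and 0.285 CPM (median 0) in the homozygotes, and 1 homozygote library overlapped the lowest heterozygote. Without wild-type replicate 1 only 4 members of the array passed the count minimum, 3 of them lower, and HsOr176 was not called.

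In HsOr256 to HsOr352 the first row kept the most and the last row had no homozygote count. The array runs HsOr256, HsOr257.1 to HsOr257.4, HsOr258, HsOr354, HsOr353 and HsOr352, and all 9 members were lower. Its sum stood at 94.0 and 55.2 CPM in the wild types, 62.8, 37.6 and 34.6 CPM in the heterozygotes and between 0.238 and 1.31 CPM (median 0.386) in the homozygotes. HsOr256, the first row, stood at 3.53 and 4.78 CPM in the wild types, 7.16, 2.72 and 2.46 CPM in the heterozygotes and between 0 and 0.871 CPM (median 0.0951) in the homozygotes and kept 5.55% (log2 fold change -4.06, SE 0.45, adjusted p 3.50e-05). HsOr258, with the most counts, stood at 19.1 and 8.26 CPM in the wild types, 7.63, 7.71 and 6.36 CPM in the heterozygotes and between 0 and 0.183 CPM (median 0.0643) in the homozygotes and kept 0.658% (log2 fold change -7.19, SE 0.38, adjusted p 2.01e-07). At the other end HsOr352 stood at 9.88 and 2.83 CPM in the wild types and 4.67, 3.68 and 4.69 CPM in the heterozygotes and had no count in any homozygote, which made it at least 159-fold lower against a floor of 3 counts over the 7 homozygotes together. Only reads that map to 1 place were counted, so reads shared between HsOr257.1, HsOr257.2, HsOr257.3 and HsOr257.4 were lost and their levels are uncertain. The same limit applies to HsOr182.1 and HsOr182.2.

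Both ends of HsOr78 to HsOr86 kept more than the 7 rows between them. All 9 members were lower, and the sum stood at 108 and 48.3 CPM in the wild types, 36.9, 40.9 and 34.2 CPM in the heterozygotes and between 0.436 and 2.66 CPM (median 1.41) in the homozygotes. HsOr78, the first row, stood at 3.32 and 1.09 CPM in the wild types, 1.87, 1.31 and 1.67 CPM in the heterozygotes and between 0.193 and 0.745 CPM (median 0.467) in the homozygotes and kept 26.2% (log2 fold change -2.10, SE 0.38, adjusted p 0.00113). HsOr86, the last, stood at 10.5 and 7.17 CPM in the wild types, 3.27, 5.52 and 4.29 CPM in the heterozygotes and between 0.0914 and 1.03 CPM (median 0.668) in the homozygotes and kept 9.73% (log2 fold change -3.45, SE 0.36, adjusted p 2.16e-05). Neither overlapped the controls in any homozygote. HsOr82, with the most counts, lay in the middle at 31.3 and 12.4 CPM in the wild types, 6.70, 12.3 and 5.64 CPM in the heterozygotes and between 0 and 0.333 CPM (median 0) in the homozygotes, and its homozygote counts, 7 in all, came from replicate 5 alone (log2 fold change -7.59, SE 0.63, adjusted p 3.19e-06). The inner rows had a median of 0.982% kept.

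HsOr264 to HsOr272 left few counts in the homozygotes. Of 9 members 7 were tested and lower, and HsOr269, HsOr270 and HsOr271 had no homozygote count. The sum stood at 75.8 and 41.5 CPM in the wild types, 33.6, 46.7 and 35.2 CPM in the heterozygotes and between 0.0828 and 0.666 CPM (median 0.274) in the homozygotes. HsOr269 was at least 199-fold lower and HsOr271 at least 149-fold lower, while HsOr270, below the count minimum, was at least 40.7-fold lower. HsOr266 kept the most, 2.80%, at 5.86 and 5.0 CPM in the wild types, 4.36, 6.57 and 6.60 CPM in the heterozygotes and between 0 and 0.297 CPM (median 0.183) in the homozygotes (log2 fold change -5.17, SE 0.46, adjusted p 5.74e-06). HsOr264, the first row, stood at 8.19 and 6.09 CPM in the wild types, 4.36, 5.0 and 5.01 CPM in the heterozygotes and between 0 and 0.143 CPM (median 0) in the homozygotes and kept 0.541%. HsOr265, with the most counts, stood at 17.6 and 5.65 CPM in the wild types, 7.79, 11.7 and 6.28 CPM in the heterozygotes and between 0 and 0.148 CPM (median 0.0668) in the homozygotes and kept 0.655%. HsOr272, the last row, had 1 homozygote count, 1.34% with a 95% interval from 0.0340% to 7.49% of the control level.

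Without the left-out receptors, HsOr226 to HsOr231 had the highest summed homozygote level of the arrays, and most of it came from its first row. Its homozygote mean of 6.06 CPM was below those of the left-out HsOr202 (8.54 CPM) and HsOr247 (8.61 CPM) alone. All 6 members were lower, with the sum at 187 and 116 CPM in the wild types, 113, 79.8 and 64.4 CPM in the heterozygotes and between 4.71 and 9.35 CPM (median 5.12) in the homozygotes. HsOr226 stood at 27.5 and 22.2 CPM in the wild types, 23.7, 11.7 and 14.1 CPM in the heterozygotes and between 2.65 and 6.01 CPM (median 3.11) in the homozygotes. It kept 18.5% (log2 fold change -2.39, SE 0.27, adjusted p 4.55e-05) and supplied 60.6% of the homozygote sum. Homozygote replicates 2 and 4 were the highest, and no homozygote overlapped a control. HsOr230, chosen after its values were seen, kept 9.49% and was highest in the same replicates, at 2.47 and 2.57 CPM, with the other homozygotes between 1.28 and 1.66 CPM. HsOr228, with the most counts, stood at 66.9 and 27.6 CPM in the wild types, 29.1, 23.8 and 19.3 CPM in the heterozygotes and between 0 and 0.436 CPM (median 0.0914) in the homozygotes and kept 0.379% (log2 fold change -8.33, SE 0.43, adjusted p 1.76e-07). HsOr231, the last row, stood at 17.4 and 18.3 CPM in the wild types, 20.4, 14.9 and 8.90 CPM in the heterozygotes and between 0.0951 and 0.414 CPM (median 0.183) in the homozygotes and kept 1.36% (log2 fold change -6.04, SE 0.31, adjusted p 1.76e-07).

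The neighbouring array HsOr232 to HsOr239 kept its highest share at an inner row. All 8 members were lower, and the sum stood at 174 and 152 CPM in the wild types, 126, 64.0 and 67.0 CPM in the heterozygotes and between 2.38 and 5.44 CPM (median 3.02) in the homozygotes. HsOr237, the sixth row, stood at 27.3 and 17.2 CPM in the wild types, 12.0, 9.82 and 6.83 CPM in the heterozygotes and between 1.03 and 3.05 CPM (median 1.26) in the homozygotes. It kept 11.8% (log2 fold change -3.04, SE 0.30, adjusted p 1.40e-05), and no homozygote overlapped a control. HsOr238, the next row and the one with the most counts, stood at 44.1 and 37.8 CPM in the wild types, 27.1, 14.7 and 23.3 CPM in the heterozygotes and between 0.134 and 0.667 CPM (median 0.257) in the homozygotes and kept 1.10% (log2 fold change -6.41, SE 0.30, adjusted p 1.19e-07). The first row, HsOr232, stood at 23.9 and 10.4 CPM in the wild types, 12.6, 5.61 and 5.01 CPM in the heterozygotes and between 0 and 0.218 CPM (median 0.134) in the homozygotes and kept 1.07%, and the last row, HsOr239, kept 2.86% at 9.95 and 8.70 CPM in the wild types, 10.4, 6.40 and 5.80 CPM in the heterozygotes and between 0.0951 and 0.467 CPM (median 0.183) in the homozygotes. The inner rows had a median of 2.43% kept.

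The shortest array, HsOr184 to HsOr181, had 4 members after the rule left out HsOr184, and all were lower. Their sum stood at 38.2 and 27.6 CPM in the wild types, 38.5, 22.4 and 17.6 CPM in the heterozygotes and between 0.267 and 2.04 CPM (median 0.548) in the homozygotes. HsOr183, beside the left-out row, stood at 11.2 and 6.74 CPM in the wild types, 9.35, 6.05 and 5.56 CPM in the heterozygotes and between 0.20 and 0.761 CPM (median 0.436) in the homozygotes and kept 5.73% (log2 fold change -4.05, SE 0.33, adjusted p 2.58e-06). HsOr181, the last row, stood at 5.37 and 8.04 CPM in the wild types, 8.41, 4.30 and 3.50 CPM in the heterozygotes and between 0 and 1.09 CPM (median 0.0914) in the homozygotes and kept 5.15% (log2 fold change -4.05, SE 0.65, adjusted p 0.000550). Its homozygote counts came mostly from replicates 1 and 5, and 3 homozygotes had none. HsOr182.1, with the most counts, stood at 13.1 and 8.48 CPM in the wild types and 12.8, 7.19 and 4.85 CPM in the heterozygotes and kept 0.293%, all of it from homozygote replicate 5 (log2 fold change -7.37, SE 0.60, adjusted p 2.70e-06). The left-out HsOr184 kept 26.9%, and with it restored the array kept 7.24%.

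In HsOr202 to HsOr192 the 9 members lie beyond a pair of left-out receptors, and all 9 were lower. Their sum stood at 158 and 87.6 CPM in the wild types, 63.7, 64.3 and 47.3 CPM in the heterozygotes and between 1.40 and 3.38 CPM (median 1.74) in the homozygotes. The left-out first rows, HsOr202 and HsOr201, kept 68.7% and 52.4%. From there the percentage was lower at each row, HsOr200 at 6.05%, HsOr199 at 3.41%, HsOr198 at 2.25% and HsOr197 at 0.729%. HsOr200 stood at 8.40 and 9.56 CPM in the wild types, 4.98, 3.42 and 2.86 CPM in the heterozygotes and between 0 and 1.00 CPM (median 0.248) in the homozygotes (log2 fold change -3.86, SE 0.49, adjusted p 0.000104), highest in homozygote replicates 4 and 7. Homozygote replicates 7 and 4 were also the 2 highest for HsOr202, and replicate 7 was the highest for HsOr201. Replicate 1, above replicate 4 for HsOr201 at 6.32 against 5.27 CPM, had no count of HsOr200. HsOr194 kept the most among the members, 7.71%, at 2.89 and 4.78 CPM in the wild types, 5.30, 1.67 and 1.91 CPM in the heterozygotes and between 0.0914 and 0.436 CPM (median 0.238) in the homozygotes (log2 fold change -3.27, SE 0.30, adjusted p 7.78e-06). HsOr196, with the most counts, stood at 46.5 and 16.1 CPM in the wild types, 12.3, 18.2 and 12.1 CPM in the heterozygotes and between 0 and 0.445 CPM (median 0.218) in the homozygotes and kept 1.04%. HsOr192, the last row, stood at 18.5 and 9.35 CPM in the wild types, 10.1, 14.8 and 6.52 CPM in the heterozygotes and between 0 and 0.476 CPM (median 0.20) in the homozygotes and kept 2.11%. With the left-out pair restored the array kept 14.3%.

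HsOr355 to HsOr368, the longest array at 14 rows, ran from members with no homozygote count to the pair that kept the highest percentages among the members. Of the 14, 12 were tested and lower, and the sum stood at 94.1 and 52.2 CPM in the wild types, 91.9, 66.5 and 65.8 CPM in the heterozygotes and between 2.92 and 6.75 CPM (median 4.07) in the homozygotes. HsOr356, with the most counts, stood at 19.1 and 6.96 CPM in the wild types and 11.8, 9.55 and 12.7 CPM in the heterozygotes and had no count in any homozygote, a level at least 372-fold lower. HsOr357, beside it, was at least 198-fold lower, also with no homozygote count. HsOr355, the first row, had 1 homozygote count, 0.151% with a 95% interval from 0.00381% to 0.839% of the control level (log2 fold change -8.60, SE 0.41, adjusted p 1.19e-07). At the other end HsOr366 kept 4.46%, HsOr367 49.1% and HsOr368 61.3%.

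HsOr368 stood at 4.31 and 4.13 CPM in the wild types, 2.80, 2.45 and 1.99 CPM in the heterozygotes and between 1.29 and 2.83 CPM (median 1.99) in the homozygotes. Only 3 of 7 homozygotes lay below the lowest control, and the heterozygotes overlapped the homozygotes while both wild types lay above them. Its call against the controls, lower with log2 fold change -0.67, SE 0.21, adjusted p 0.0241, was lost without wild-type replicate 1 or heterozygote replicate 2. HsOr367, chosen after its values were seen, stood at 3.60 and 2.39 CPM in the wild types, 5.76, 3.86 and 4.05 CPM in the heterozygotes and between 0.822 and 3.05 CPM (median 2.07) in the homozygotes. Here the wild types overlapped the homozygotes, and 4 of 7 homozygotes lay below the lowest control. Its call against all controls was lower (log2 fold change -0.89, SE 0.32, adjusted p 0.0404) but was lost in 8 of the 12 fits that left out 1 library, and the heterozygotes were its highest group at 4.56 ± 1.05 CPM (SD, n = 3), the wild types standing at 3.0 ± 0.855 CPM (SD, n = 2).

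HsOr254 to HsOr247 kept the smallest share among its 7 members, all lower. Its sum stood at 67.0 and 44.8 CPM in the wild types, 49.8, 57.5 and 49.8 CPM in the heterozygotes and between 0.218 and 0.548 CPM (median 0.333) in the homozygotes, and 5 members had between 1 and 3 homozygote counts. HsOr254, the first row, had 1 such count, 0.186% with a 95% interval from 0.00472% to 1.04% of the control level (log2 fold change -8.19, SE 0.43, adjusted p 1.94e-07). HsOr251, with the most counts, stood at 15.9 and 9.56 CPM in the wild types and 10.7, 18.2 and 14.2 CPM in the heterozygotes and had 2 homozygote counts, 0.157% with a 95% interval from 0.0190% to 0.57% (log2 fold change -8.92, SE 0.40, adjusted p 1.12e-07). HsOr248, the last member, stood at 9.39 and 5.22 CPM in the wild types, 7.32, 5.79 and 4.45 CPM in the heterozygotes and between 0 and 0.365 CPM (median 0.20) in the homozygotes and kept 3.28% (log2 fold change -4.86, SE 0.33, adjusted p 7.74e-07). It supplied 61.3% of the homozygote sum. The next row, the left-out HsOr247, kept 67.3%, at 14.8 and 14.6 CPM in the wild types, 11.7, 11.7 and 11.2 CPM in the heterozygotes and between 6.10 and 11.4 CPM (median 9.05) in the homozygotes.

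The run at the end of the table, HsOr140 to HsOr160, also fell. Of its 9 members 8 were tested and lower, and the sum stood at 96.6 and 73.7 CPM in the wild types, 67.4, 47.7 and 45.1 CPM in the heterozygotes and between 1.74 and 6.53 CPM (median 2.52) in the homozygotes. HsOr160, its last row, stood at 11.6 and 7.39 CPM in the wild types, 6.85, 5.52 and 6.36 CPM in the heterozygotes and between 0.904 and 3.27 CPM (median 1.56) in the homozygotes and kept 25.4% (log2 fold change -2.02, SE 0.30, adjusted p 0.000343), 64.4% of the homozygote sum. No homozygote overlapped a control for this gene. HsOr156, with the most counts, stood at 31.6 and 28.5 CPM in the wild types, 27.3, 19.1 and 16.2 CPM in the heterozygotes and between 0 and 0.666 CPM (median 0.0914) in the homozygotes and kept 0.698% (log2 fold change -6.81, SE 0.54, adjusted p 2.46e-06). HsOr140, the first row and below the count minimum, had no homozygote count and was at least 38.9-fold lower.

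Many members were at or near the edge of detection in the homozygotes. Over the 7 homozygote libraries together 8 members had no count, 24 had 1 to 3 counts and 65 had more. Of the 65, HsOr82 (7 counts), HsOr171 (5), HsOr364 (5) and HsOr182.1 (4) had all their homozygote counts in replicate 5. The members without a count were HsOr172, HsOr352, HsOr269, HsOr270, HsOr271, HsOr356, HsOr357 and HsOr140, with bounds from at least 29.1-fold (HsOr172) to at least 372-fold (HsOr356) lower. With counts summed over the 7 homozygotes and divided by their summed library size, members with 1 to 3 counts stood at 0.118% to 1.80% of the control level, with exact Poisson 95% intervals between 0.00299% and 7.49%. These intervals and bounds cover counting error only. Of all members 48 kept under 1%, 42 between 1% and 10% and 7 over 10%, with a median of 1.00%, and 19 had counts in every homozygote library.

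The 7 that kept over 10% were HsOr176, HsOr78, HsOr226, HsOr237, HsOr367, HsOr368 and HsOr160. They had counts in all 7 homozygotes, and their log2 fold changes ran from -3.04 to -0.67. Together they made up 7.39% to 8.49% of the members' sum in the controls and 47.7% to 60.7% in the homozygotes. The other 90 members summed kept 1.71%. HsOr86, at 9.73%, and HsOr230, at 9.49%, lay just under 10%.

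**Figure D2:**
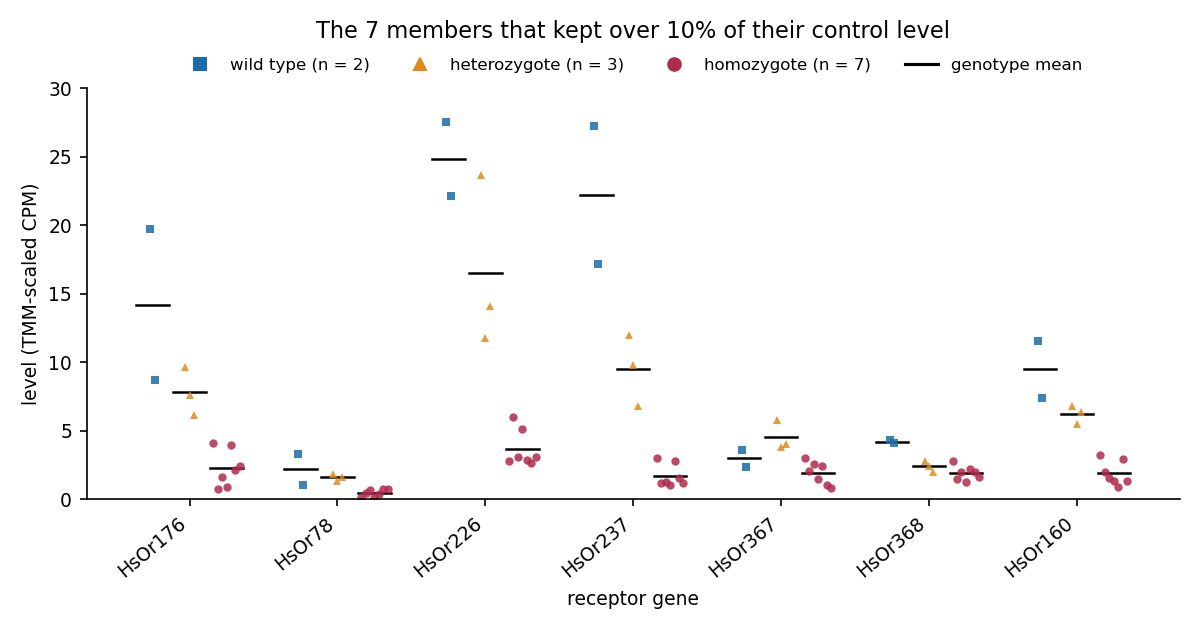
Level (TMM-scaled CPM) in each library of the 7 members that kept over 10% of their control level, with black bars for the genotype means. HsOr367 and HsOr368 are the members whose homozygotes overlap the controls, and the homozygotes of the other 5 lie below all controls.

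Members with a high percentage kept stood often, though not always, at the edge of an array. With the left-out rows restored, the row that kept the most was an end row in 8 of the 10 arrays in place, where end rows are 20 of 92 rows. The exceptions were HsOr264 to HsOr272, led by HsOr266, and HsOr232 to HsOr239, led by HsOr237. End rows had a median of 4.0% kept and 7 of 20 kept over 10%, while inner rows had a median of 0.784% and 3 of 72 kept over 10%. Among members alone the 17 end rows had a median of 2.81% and the 71 inner rows 0.753%. In 5 arrays the leading end row was a member, namely HsOr176, HsOr256, HsOr78, HsOr226 and HsOr368, and in the other 3 it was left out by the rule (HsOr184, HsOr202 and HsOr247). This pattern was noticed in these data, assumes that row order follows gene order, and was not tested.

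At the opposite end of these 8 arrays 5 rows kept less than the inner median of their array and 3 kept more. HsOr352 had no homozygote count at the end opposite HsOr256, and HsOr355, opposite HsOr368, and HsOr254, opposite HsOr247, had 1 each. Also under the inner median were HsOr231, at 1.36% against 1.39%, and HsOr192, at 2.11% against 3.41%. Above it were HsOr86, HsOr123, at 2.81% against 0.523%, and HsOr181, at 5.15% against 2.03%. The value of HsOr123, which was not tested, rests on 7 homozygote counts from 2 libraries. That of HsOr181 rests mostly on homozygote replicates 1 and 5.

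**Figure D3:**
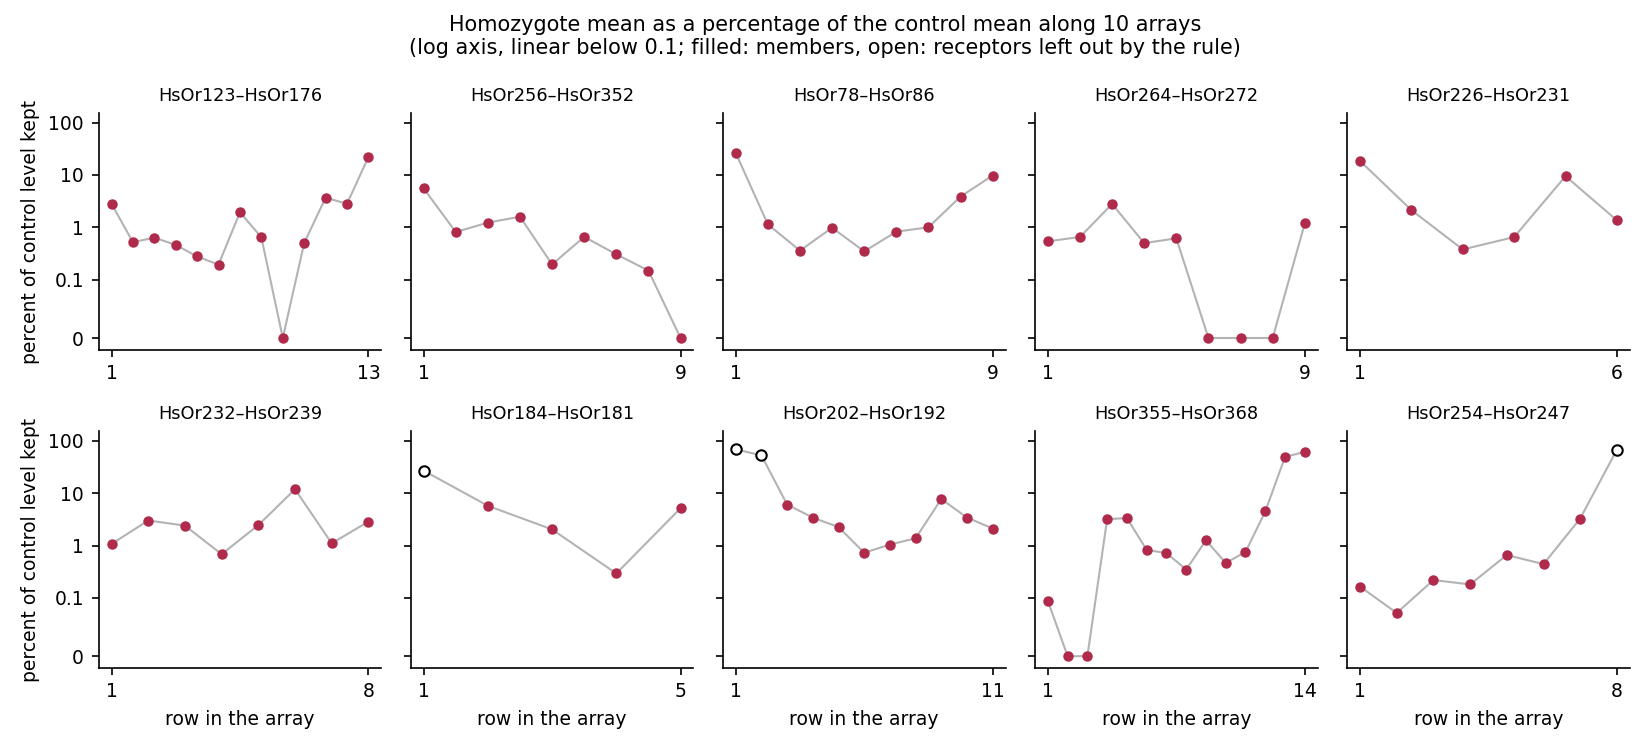
Homozygote mean as a percentage of the control mean (log axis, linear below 0.1) against the row number in each of the 10 arrays in place, with filled points for members and open points for receptors left out by the rule. The highest point is at row 1 or the last row in 8 arrays and inside HsOr264 to HsOr272 and HsOr232 to HsOr239.

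The genes in the rows next to the arrays in place were called in either direction or not at all. Of 19 such genes 14 were tested, of which 3 were lower, 5 were higher and 6 were not called. Over all tested genes 25.0% were called lower, and the share called higher was not taken, so these counts are not read as a trait of the neighbours. LOC105190453, the row before HsOr254, stood at 3.60 and 2.83 CPM in the wild types, 5.14, 3.59 and 3.73 CPM in the heterozygotes and between 0 and 0.0742 CPM in the homozygotes, with 2 counts in all. It was lower (log2 fold change -6.80, SE 0.45, adjusted p 6.00e-07), with no overlap between homozygotes and controls. LOC105187352, the single row between HsOr231 and HsOr232, was below the count minimum at 0.212 and 1.30 CPM in the wild types and 2.02, 0.877 and 0.556 CPM in the heterozygotes, and its 1 homozygote count gave 1.08% with a 95% interval from 0.0275% to 6.04% of the control level. The tables used here give no description of these genes.

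Other neighbours went either way. LOC105187796, after HsOr176, was lower (log2 fold change -0.63, SE 0.11, adjusted p 0.000794), as was LOC105191286, before HsOr78 (log2 fold change -1.42, SE 0.18, adjusted p 0.000112). LOC105191288, after HsOr86, was higher (log2 fold change 1.47, SE 0.27, adjusted p 0.00120). LOC105187310, after HsOr239, stood at 6.42 and 33.3 CPM in the wild types, 473, 305 and 425 CPM in the heterozygotes and between 251 and 771 CPM (median 490.1) in the homozygotes, so that both wild types lay below all other libraries. It was higher in the homozygotes than in all controls (log2 fold change 2.95, SE 0.40, adjusted p 0.000163) but not called against the heterozygotes (log2 fold change 0.55, SE 0.39, adjusted p 0.337), and it was, compared with wild type, higher in the heterozygotes (log2 fold change 4.80, SE 0.65, adjusted p 0.00106), while HsOr239 beside it was not called between the latter (log2 fold change -0.32, SE 0.41, adjusted p 0.614). Also higher in the homozygotes were LOC105190682 after HsOr352, LOC105190779 after HsOr192 and LOC105190442 after HsOr247. LOC105190779 was low and its groups overlapped, at 0.477 to 1.71 CPM in the controls and 0.734 to 1.96 CPM in the homozygotes (log2 fold change 0.79, SE 0.29, adjusted p 0.0453). None of the 5 genes higher against the controls was called with the heterozygotes alone as reference. LOC105190779 and LOC105190442 were not called with the wild type alone either.

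Between the control genotypes the arrays differed much less, and the number of calls depended on single libraries of both genotypes. Of the 88 tested members 10 were lower in the heterozygotes, where 8.14% of all genes were, and 0 were higher, where 9.71% were. At an unadjusted p under 0.05 edgeR gave 29 lower and 0 higher, where 15.6% and 17.8% of all genes were. DESeq2 called 16 lower and 0 higher, where it called 11.8% and 13.3% of all genes. The median log2 fold change was -0.61 over the members and 0.03 over all tested genes, and 76 members had a negative value, as did 47.8% of all genes. In 34 of the 88 all heterozygotes lay below both wild types, which held for 11.7% of all tested genes. Without wild-type replicate 1 the members' median was 0.08 and 0 were called, where 1.79% of all genes were called lower, and without wild-type replicate 2 it was -1.07 and 25 were called lower, where 15.2% of all genes were. The number lower was 5 without heterozygote replicate 2 (6.37% of all genes), 3 without heterozygote replicate 3 (5.09%), 3 without the batch term (2.77%) and 0 with a replicate block (2.41%).

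Markers of other cells moved in the same comparison. Of the 13 markers, Syt1, onecut, Rh50 and Mhc were higher in the heterozygotes and nompC, a marker of mechanosensory neurons, was lower. Wild-type replicate 1 was the lowest control for several of them: onecut stood at 28.0 CPM there and at 177 CPM in wild-type replicate 2, the epithelial marker grh at 5.30 and 62.6 CPM, and the support-cell marker sv at 1.91 and 23.9 CPM. The part of cell makeup in the difference between the control genotypes was not tested.

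The 10 members lower in the heterozygotes came from 6 arrays. In HsOr78 to HsOr86 they were HsOr85, at 8.54 and 2.17 CPM in the wild types and 0.779, 0.701 and 0.874 CPM in the heterozygotes (log2 fold change -2.85, SE 0.44, adjusted p 0.00206), HsOr81 (log2 fold change -2.21, SE 0.59, adjusted p 0.0250) and HsOr84 (log2 fold change -1.65, SE 0.48, adjusted p 0.0373). HsOr81 stood at 6.71 and 2.83 CPM in the wild types and 1.40, 1.31 and 0.556 CPM in the heterozygotes, and HsOr84 at 11.2 and 5.0 CPM in the wild types and 2.65, 2.45 and 2.86 CPM in the heterozygotes. In each the wild types lay above all heterozygotes, and wild-type replicate 1 lay well above replicate 2. HsOr85 had the largest fall of the members in this comparison, and its homozygotes kept 3.87% (log2 fold change -4.33, SE 0.38, adjusted p 5.15e-06).

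In HsOr123 to HsOr176 they were HsOr129, at 8.12 and 5.22 CPM in the wild types and 1.40, 1.14 and 1.59 CPM in the heterozygotes (log2 fold change -2.32, SE 0.39, adjusted p 0.00289), and HsOr124, at 9.74 and 7.17 CPM in the wild types and 2.80, 2.45 and 2.15 CPM in the heterozygotes (log2 fold change -1.80, SE 0.44, adjusted p 0.0187). HsOr353 of HsOr256 to HsOr352 stood at 18.8 and 8.70 CPM in the wild types and 2.96, 5.0 and 4.05 CPM in the heterozygotes (log2 fold change -1.87, SE 0.36, adjusted p 0.00612). For all of these the heterozygotes were closer to each other than the wild types were. HsOr267 of HsOr264 to HsOr272 stood at 12.1 and 6.96 CPM in the wild types and 2.34, 4.91 and 2.86 CPM in the heterozygotes (log2 fold change -1.62, SE 0.40, adjusted p 0.0187), and HsOr236 of HsOr232 to HsOr239 at 23.2 and 27.6 CPM in the wild types and 16.2, 6.57 and 7.39 CPM in the heterozygotes (log2 fold change -1.34, SE 0.34, adjusted p 0.0216). HsOr236 was the called member in which replicate 2, not replicate 1, was the higher wild type.

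In HsOr202 to HsOr192 the called members were HsOr199, at 26.5 and 15.0 CPM in the wild types and 9.35, 10.8 and 7.71 CPM in the heterozygotes (log2 fold change -1.19, SE 0.35, adjusted p 0.0366), and HsOr197, at 22.5 and 11.1 CPM in the wild types and 6.39, 4.73 and 5.01 CPM in the heterozygotes (log2 fold change -1.66, SE 0.50, adjusted p 0.0418). In all 10 every heterozygote lay below both wild types, as in 34 of the 88 tested members, and as the calls use the same libraries this adds no support to them. Their homozygotes kept less than 4% of the control level and had no overlap with the controls, which held for 86 of the 88. No member was called in HsOr226 to HsOr231, HsOr184 to HsOr181, HsOr355 to HsOr368, HsOr254 to HsOr247 or HsOr140 to HsOr160. The median log2 fold change was 0.04 in HsOr355 to HsOr368, -0.15 in HsOr254 to HsOr247 and -1.14 in HsOr202 to HsOr192, and the differences between arrays were not tested.

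**Figure D4:**
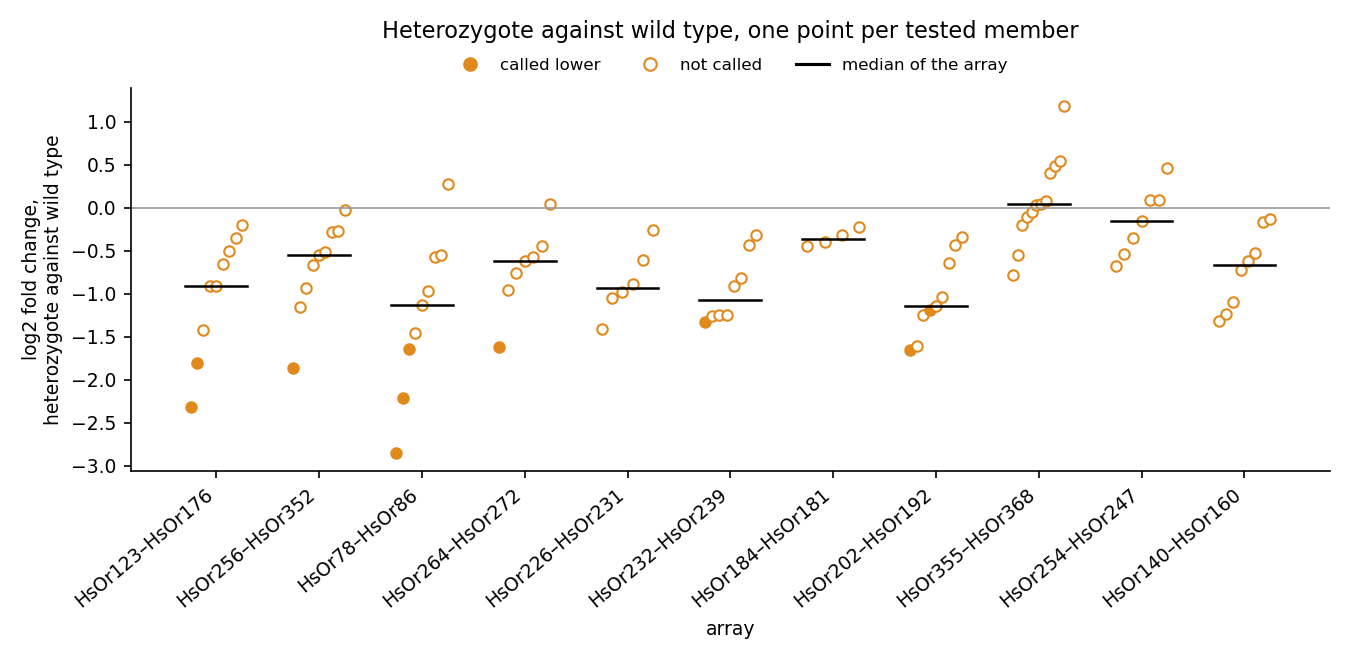
Log2 fold change of each tested member in the heterozygotes against the wild type, by array, with filled points for the 10 members called lower and black bars for the array medians. Medians lie between -1.14 (HsOr202 to HsOr192) and 0.04 (HsOr355 to HsOr368).

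Within batches the comparison of the control genotypes came out unlike. In batch 1, with 1 library each, the members' sum in the heterozygote was 96.2% of the wild type, and by array between 72.7% and 176%. In batch 2, with 1 wild type and 2 heterozygotes, it was 44.8%, and by array between 34.8% and 80.1%. The heterozygote was below the wild type in 7 of 11 arrays in batch 1 and in 11 of 11 in batch 2. Among the tested members 41 of 88 were lower in the heterozygote of batch 1, where 47.0% of all tested genes were, and 80 of 88 were lower in both heterozygotes of batch 2, where 40.8% were. Each batch holds a single wild-type library, so a difference between batches and one between those libraries cannot be told apart.

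**Figure D5:**
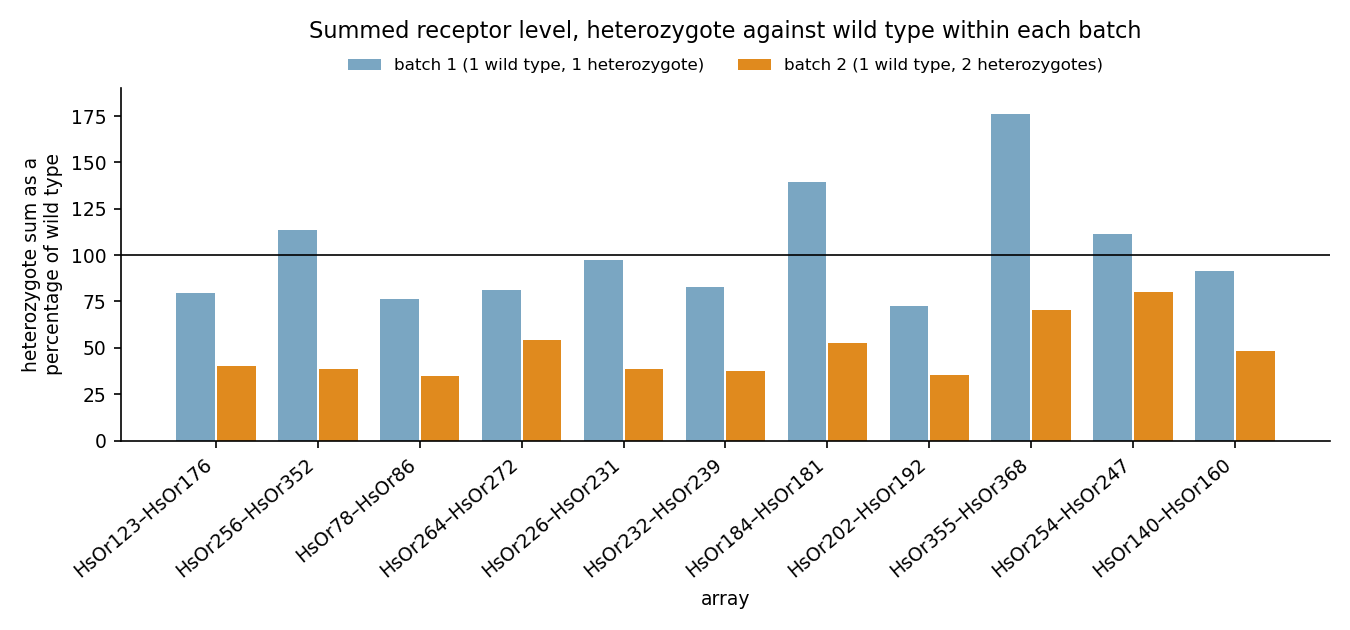
Summed level of each array in the heterozygotes as a percentage of the wild type, within batch 1 and within batch 2, with a line at 100%. Batch 2 values lie below 100% in all 11 arrays, and batch 1 values lie above 100% in HsOr256 to HsOr352, HsOr184 to HsOr181, HsOr355 to HsOr368 and HsOr254 to HsOr247.

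The fall in the homozygotes, by contrast, was present in both batches. The homozygote sum was 4.72% of the controls of the same batch in batch 1 and 3.19% in batch 2. By array it lay between 0.460% and 9.62% in batch 1 and between 0.596% and 5.68% in batch 2. Homozygote replicate 1, the single homozygote of batch 1, was the highest homozygote in 5 of 11 arrays, and replicate 5 in 3.

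The other tuning receptors are given beside the members. Of 206 tested receptors in runs of over 14 rows 203 were lower, with a median log2 fold change of -5.90 and 3.87% of the summed control level kept. Of 48 tested receptors in runs of under 5 rows 45 were lower, with a median of -3.92 and 14.6% kept. The members had all 88 lower, a median of -6.29 and 3.42% kept. The rule had removed 4 strongly kept receptors from the members' arrays, while the longer and shorter runs are given whole, with no receptor left out. With the 4 restored, 90 receptors of the members' arrays were lower, HsOr202 and HsOr201 were not called, and 6.17% was kept. The values of the 3 sets are therefore not alike in their selection and stand side by side without a test.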

How the data were processed

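Gene-level read counts were analysed for 12 antennal libraries, made with the NEBNext Ultra II kit from 110 ng of RNA and 12 PCR cycles. The authors aligned reads with STAR 2.6.1d and deposited its raw counts per gene; only reads mapping to 1 place and 1 gene are counted. The 4 rows naming no gene (20.7% to 29.7% of counted reads) were left out. Both strand columns were nearly equal, so the unstranded column was used, and a gene and its antisense partner cannot be told apart. A deposited table normalized by the authors with DESeq2 1.34.0 was not used.

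Counts were fitted with edgeR 4.0.16 (TMM, genotype plus batch, quasi-likelihood test) in R 4.3.3 over the 10740 of 14407 genes with a mean count of at least 10, Benjamini-Hochberg adjusted over all, and the fit was tested on simulated data. Fold changes are batch-adjusted, and those against the controls weigh wild type and heterozygote equally. The SE was approximated from the fold change and the F statistic. Alternatives were DESeq2 1.42.0, library totals, no count minimum, no batch term, batch 2 alone, a replicate block, left-out receptors restored and each library left out.

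Members and lists were chosen with earlier results of these data known. Named members were, per array, the first, the last, the one with most counts and the one with the highest percentage kept, plus those not called lower in the homozygotes, those called between heterozygote and wild type, and those with at least 5 CPM in the controls and a log2 fold change above -3. Genes in the adjoining rows were also named. Of the olfactory genes sought beside the receptors, only HsOrco was named in the tables.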

Additional observations from a re-analysis of the deposited data

Results flagged for a closer look

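Of 29 sets of 7 homozygote values (11 array sums and 18 members with at least 21 homozygote counts), 2 had a library set apart from the other 6 by Dixon's criterion, which chance alone meets in about 1 of 20 sets. The sum of HsOr140 to HsOr160 was 6.53 CPM in homozygote replicate 1 and between 1.74 and 3.31 CPM in the other homozygotes. HsOr236 stood at 0.801 CPM in homozygote replicate 2 and between 0.248 and 0.457 CPM in the others.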

How the results depend on the processing

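In the homozygotes every member tested under an alternative (77 to 97 of the 97) had a negative log2 fold change there. Against the controls the calls lost were those of HsOr176, HsOr367 and HsOr368 without wild-type replicate 1 (74 of 77 tested members lower), HsOr367 and HsOr368 without heterozygote replicate 2, HsOr367 alone without 6 other libraries, and HsOr78, HsOr367 and HsOr368 with the replicate block. In HsOr123 to HsOr176 the number lower ranged from 3 to 10 with 1 library left out, because fewer members passed the count minimum without wild-type replicate 1. With the left-out receptors restored, the percentage kept was 6.17% over all members, 7.24% in HsOr184 to HsOr181, 14.3% in HsOr202 to HsOr192 and 13.4% in HsOr254 to HsOr247.

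Between the control genotypes 10 members were lower in the heterozygotes, and this number became 16 with DESeq2, 21 with batch 2 alone, 3 without the batch term and 0 to 25 with 1 library left out (0 without wild-type replicate 1, 25 without wild-type replicate 2, 5 without heterozygote replicate 2 and 3 without heterozygote replicate 3). The cause was not tested. Replicate numbers did not pair the libraries: 7 same-numbered pairs correlated between -0.56 and 0.53. A fit with the replicate block and the batch term, with 2 residual degrees of freedom, called 0 members between the control genotypes and left 85 homozygote calls against all controls, 80 with the heterozygotes as reference and 84 with the wild type. Library-total scaling moved the median log2 fold change of all genes in the homozygotes from -0.04 to -0.17 and that of the members from -6.29 to -6.37. The omission of the run at the end of the table, chosen after seeing the data, left 80 members lower against the controls, 79 against each control genotype, 10 lower in the heterozygotes and 3.31% kept. Depth limits the low members: 3 counts corresponded to 0.143 to 0.653 CPM in a single homozygote library.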
